A study of Mus musculus with 6 samples.

Results

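Of the 24054 genes in the count table, 10 were examined here as the circadian clock genes of gastrocnemius muscle. They were taken by symbol as core clock and output genes and not by a threshold on their values, although earlier results of these data were known. Arntl, Clock and Npas2 encode the activators of the clock, Per1, Per2, Per3 and Cry1 encode repressors, Nr1d1 and Nr1d2 encode nuclear receptors that repress Arntl, and Dbp encodes an output factor. The data were RNA-seq libraries of gastrocnemius (GAS) from 3 MI4KO and 3 MI4OE mice, all male C57BL/6 by their labels, and each library was compared by its genotype label. MI4KO mice were Irf4 flox/flox carrying Myl1-Cre and lacked the transcription factor IRF4 in skeletal muscle, and MI4OE mice carried Myl1-Cre with a Rosa26-LSL-Irf4 allele and overexpressed it there. Both groups therefore carried Myl1-Cre, which acts in muscle fibres and leaves Irf4 as it was in the other cells of the tissue. The labels give a high-fat diet for all mice whereas the study describes chow, so the diet is uncertain. The age of these mice and the time of day at which their muscles were taken are not given in the sources used here, and gastrocnemius of flox or wild-type mice was not analysed here, so each difference is between MI4OE and MI4KO and not from a baseline.

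The clock is a feedback loop found in nearly every cell. The products of Arntl (also named Bmal1) and of Clock or its relative Npas2 pair on E-box DNA elements and switch on the Per, Cry and Nr1d genes and Dbp. PER and CRY proteins then block that pair, NR1D1 and NR1D2 shut down Arntl through RORE elements, and DBP acts on D-box elements such as those of the Per genes. As a result Arntl and Npas2 peak in the tissue at about the time of day when Nr1d1, Dbp and Per3 are low, and the balance of these genes within a sample follows the phase of the clock. Muscle has its own clock, which feeding, activity and glucocorticoid hormone can shift.

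The promoters of 4 members hold letters that match such elements. They are RefSeq windows of build GRCm38.p6 that run from 250 bases before a gene's start to 50 after it, written on the gene's strand, with the matched element in capitals. Per3 (chr4:151044616-151044915, minus strand) has a D-box, TTATGTAA, 205 and again 158 bases before its start. The later of the listed starts of Arntl (chr7:113207261-113207560, plus strand) has a RORE core, TAGGTCA, 31 bases after it. The earlier of the listed starts of Per1 (chr11:69098699-69098998, plus strand) has an E-box, CACGTG, 166 bases before it. Nr1d1 (chr11:98775328-98775627, minus strand) has the E-box variant CACGTT, read here on the opposite strand as AACGTG, 28 bases before its start.
Per3: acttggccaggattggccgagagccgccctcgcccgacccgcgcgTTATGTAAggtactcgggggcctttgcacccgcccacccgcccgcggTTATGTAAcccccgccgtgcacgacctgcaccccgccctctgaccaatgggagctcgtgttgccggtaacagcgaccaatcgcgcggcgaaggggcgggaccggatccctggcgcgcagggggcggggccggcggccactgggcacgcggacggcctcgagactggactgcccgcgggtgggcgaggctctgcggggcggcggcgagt
Arntl: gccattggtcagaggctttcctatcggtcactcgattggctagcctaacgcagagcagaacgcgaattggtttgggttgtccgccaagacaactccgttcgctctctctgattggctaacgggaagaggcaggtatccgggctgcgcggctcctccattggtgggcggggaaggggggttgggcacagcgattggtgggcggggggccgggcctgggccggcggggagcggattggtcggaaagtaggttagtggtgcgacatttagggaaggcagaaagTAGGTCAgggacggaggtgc
Per1: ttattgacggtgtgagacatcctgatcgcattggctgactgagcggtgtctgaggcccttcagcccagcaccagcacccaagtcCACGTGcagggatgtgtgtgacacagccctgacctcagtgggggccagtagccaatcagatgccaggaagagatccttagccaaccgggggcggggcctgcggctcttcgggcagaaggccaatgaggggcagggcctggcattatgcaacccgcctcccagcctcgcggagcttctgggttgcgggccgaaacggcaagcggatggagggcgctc
Nr1d1: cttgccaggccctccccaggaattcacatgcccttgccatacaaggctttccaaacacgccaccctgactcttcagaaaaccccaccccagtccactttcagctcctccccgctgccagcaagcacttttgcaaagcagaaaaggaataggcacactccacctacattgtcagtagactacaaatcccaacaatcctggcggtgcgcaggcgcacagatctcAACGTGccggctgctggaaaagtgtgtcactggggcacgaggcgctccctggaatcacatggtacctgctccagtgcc

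Windows were found for 9 of the 10 members, 13 windows in all, and 5 members had at least 1 of the 4 motifs, searched on both strands. The fifth was Cry1 (chr10:85185005-85185304, minus strand), with an E-box 60 bases and the variant 79 bases before its start. Among all 32851 promoter windows of this length, 7.15% held the E-box, 4.68% the variant, 0.938% the D-box and 2.61% the RORE core. The windows of Clock, Npas2, Nr1d2 and Dbp held none of these letters, nor did the other listed windows of Arntl and Per1. Elements outside the windows were not searched. A match in a window describes the letters and does not show that a factor bound there.

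The libraries held between 18828605 and 29239585 counts, and 3 counts in a library corresponded to 0.101 to 0.148 CPM. CPM is the count scaled by library size after TMM scaling, a scaling that sets the bulk of genes level between libraries. The targeted gene, Irf4, was read 6, 0 and 2 times in MI4KO and 2864, 10557 and 5911 times in MI4OE, which matched the labels. The 12 skeletal muscle markers summed to 209328 CPM in MI4OE replicate 1, to 373039 CPM in MI4KO replicate 1 and to between 280786 and 298675 CPM in the other 4 libraries. Markers of other cells also differed between libraries, and fewer cells of a type and less RNA per cell cannot be told apart in such whole-tissue samples. All 7 endothelial markers were fitted higher in MI4OE (summed 92.7 to 154 CPM in MI4KO and 177 to 308 in MI4OE), as were all 6 fibroblast markers (204 to 309 and 358 to 484 CPM), although 0 of either list passed the adjusted threshold in edgeR's quasi-likelihood test (3 of the 7 and 6 of the 6 had an unadjusted p under 0.05, against 4.9% of all genes in that direction). DESeq2 called 1 fibroblast marker, Col1a2. Of the 8 adipocyte markers, 7 were fitted lower in MI4OE at a median log2 fold change of -3.60 over the list, with 6 at an unadjusted p under 0.05 (2.68% of all genes in that direction), and 5 with groups apart (5.47% of all genes in that direction). By adjusted p 0 of the 8 passed in edgeR's quasi-likelihood test, 1 with DESeq2 (Plin1) and 5 with edgeR's exact test (Adipoq, Cfd, Cidec, Lep and Plin1). Adipoq, which encodes the fat cell hormone adiponectin, was at 9.58 to 81.4 CPM in MI4KO and at 0.886 to 5.94 CPM in MI4OE, while the sum of the list overlapped between the groups (290.2 to 1351 and 246 to 1026 CPM). All 4 erythrocyte markers tested were fitted higher in MI4OE, with summed levels that overlapped (189 to 299 and 249.6 to 755 CPM). Slow fibre markers summed to 6276, 35.5 and 566 CPM in MI4OE and to 23.5, 110.1 and 57.7 CPM in MI4KO, so MI4OE replicates 1 and 3 lay above every MI4KO library and MI4OE replicate 2 lay within the MI4KO range. All 7 slow fibre markers tested were fitted higher in MI4OE (median log2 fold change 6.30), with 6 at an unadjusted p under 0.05 (4.9% of all genes in that direction) and 0 with groups apart or past the adjusted threshold in any fit. The part of these markers in the values of the clock genes was not tested.

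Per transcript length, the 10 members spanned a wide range of levels. Dbp was highest at 164.5 ± 43.8 TPM (a level corrected for transcript length and depth, mean ± SD over the 6 libraries), followed by Nr1d1 at 71.5 ± 21.5, Per1 at 24.2 ± 6.79 and Nr1d2 at 19.1 ± 5.53 TPM. Each of these was above the next in 6 of 6 libraries. Cry1 (6.54 ± 1.91 TPM) and Arntl (4.67 ± 1.54 TPM) came next, and each was above its follower in only 5 of 6 libraries. Per2 (3.44 ± 1.02 TPM) was above Per3 (2.75 ± 0.89 TPM) in 6 libraries, Per3 was above Clock (2.49 ± 0.85 TPM) in 4, and Npas2 was almost absent at 0.043 ± 0.035 TPM. Per3 and Clock were within each other's SD. Of the activators, Arntl lay in the middle of this order and Clock and Npas2 at its lower end.

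**Figure D1:**
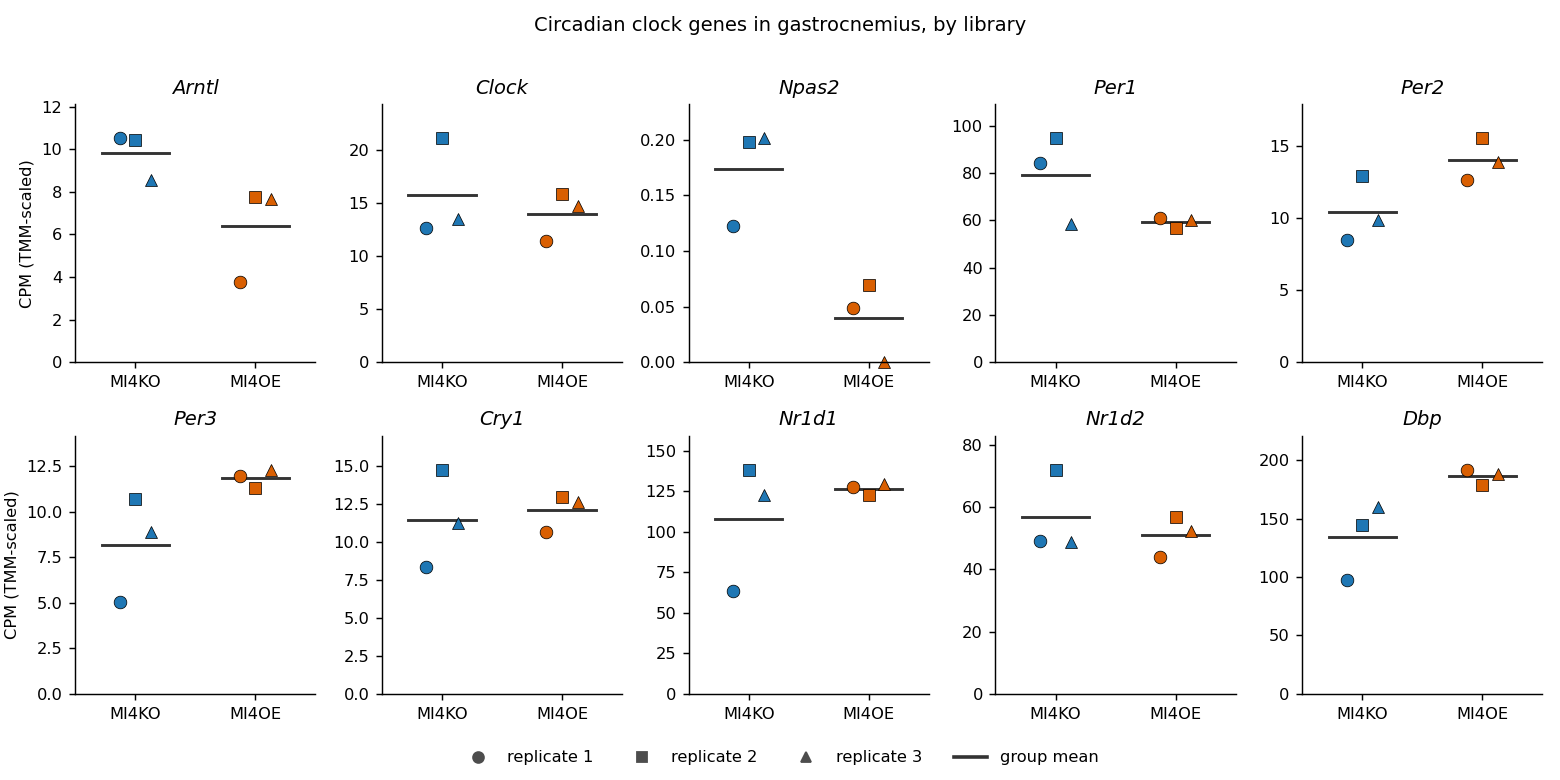
CPM (TMM-scaled, each axis from 0) of the 10 clock genes in the 3 MI4KO and 3 MI4OE libraries, where symbols mark replicates and horizontal lines the group means. The groups do not overlap for Arntl, Npas2, Per3 and Dbp, and MI4KO replicate 1 is the lowest library for Per2, Per3, Cry1, Nr1d1 and Dbp.

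Among the activators, Arntl was lower in every MI4OE library. For Arntl the MI4KO replicates measured 10.5, 10.4 and 8.56 CPM and the MI4OE replicates 3.79, 7.76 and 7.68 CPM, so that the groups did not overlap and MI4OE replicate 1 lay far below the rest. Its fitted log2 fold change, MI4OE over MI4KO, was -0.61 ± 0.28 (SE, n = 3 and 3; 95% interval -1.27 to 0.050), which did not pass edgeR's quasi-likelihood test (adjusted p = 0.688, unadjusted p = 0.0652). Without MI4OE replicate 1 the log2 fold change was -0.35. Clock encodes the partner of the Arntl product. For Clock the MI4KO replicates measured 12.6, 21.2 and 13.5 CPM and the MI4OE replicates 11.4, 15.9 and 14.7 CPM. The groups overlapped (log2 fold change -0.17 ± 0.24, 95% interval -0.73 to 0.40), and the fitted difference changed sign without MI4KO replicate 2.

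Npas2, the relative of Clock, was barely detected and did not pass the filter on low counts. The MI4KO replicates held 3, 5 and 6 counts of it and the MI4OE replicates 1, 2 and 0. Pooled over each group, 14 against 3 counts gave a level 4.20 times higher in MI4KO, with an exact 95% interval of 1.17 to 22.8 that covers counting error only. All MI4OE libraries were under 3 counts, and no test across replicates was made for this gene.

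Of the Period genes, Per2 and Per3 were higher on average in MI4OE and Per1 was lower. Per1 also answers directly to glucocorticoid and to activity. For Per1 the MI4KO replicates measured 84.1, 94.8 and 58.6 CPM and the MI4OE replicates 61.2, 57.0 and 60.0 CPM. MI4KO replicates 1 and 2 lay above all other libraries, while MI4KO replicate 3 lay among the MI4OE values (log2 fold change -0.41 ± 0.20). For Per2 the MI4KO replicates measured 8.47, 13.0 and 9.84 CPM and the MI4OE replicates 12.6, 15.6 and 13.9 CPM. Only MI4KO replicate 2 reached the MI4OE range, and the log2 fold change was 0.43 ± 0.20. For Per3 the MI4KO replicates measured 5.04, 10.7 and 8.87 CPM and the MI4OE replicates 11.95, 11.3 and 12.3 CPM. Its groups did not overlap. The log2 fold change of Per3 was 0.53 ± 0.27 with all libraries and 0.27 without MI4KO replicate 1. The adjusted p was 0.705 for Per1, 0.688 for Per2 and 0.722 for Per3 by edgeR's quasi-likelihood test.

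Cry1, the partner of the PER proteins, did not separate the groups. The MI4KO replicates measured 8.31, 14.7 and 11.2 CPM and the MI4OE replicates 10.6, 12.9 and 12.6 CPM. The log2 fold change was 0.079 ± 0.23 (95% interval -0.45 to 0.61), so changes within this interval could not be told from none with these libraries.

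The genes for the nuclear receptors that repress Arntl had overlapping groups. For Nr1d1 the MI4KO replicates measured 63.3, 138 and 123 CPM and the MI4OE replicates 128, 122 and 129 CPM. A single library, MI4KO replicate 1, was low, and the other 5 lay between 122 and 138 CPM. Its log2 fold change was 0.23 ± 0.28 with all libraries and -0.053 without MI4KO replicate 1. For Nr1d2 the MI4KO replicates measured 49.0, 72.0 and 48.9 CPM and the MI4OE replicates 43.8, 56.7 and 52.3 CPM, with a log2 fold change of -0.15 ± 0.21.

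Dbp, the output factor, was higher in every MI4OE library. The MI4KO replicates measured 97.1, 145 and 160 CPM (134 ± 32.7, mean ± SD) and the MI4OE replicates 192, 179 and 188 CPM (186 ± 6.61). The log2 fold change was 0.48 ± 0.22 (95% interval -0.028 to 0.98), and edgeR's quasi-likelihood test gave an unadjusted p of 0.0611 (adjusted p = 0.685). Without MI4KO replicate 1 it was 0.28, and the groups still did not overlap.

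Dbp and Nr1d1 share exon bases with a neighbour on the opposite strand, 539 of 1837 with Sphk2 for Dbp and 263 of 2721 with Thra for Nr1d1, by the GENCODE annotation, which need not match the transcript set of the files. The library kit keeps strand, but no source used here says that the counting used it. The estimated counts of Dbp and Sphk2 each carried a fraction in 6 of 6 libraries and summed to a whole number in 6 of 6 (within 0.005). Their sum was 117, 159 and 176 CPM in MI4KO and 206, 192 and 203 CPM in MI4OE, so the groups did not overlap for the pair either. Thra, a thyroid hormone receptor gene, was level at 48.3 to 57.0 CPM over the 6 libraries (log2 fold change 0.055 ± 0.14). Arntl shares 33 of 3090 exon bases with an antisense gene.

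Across the 9 members tested, by edgeR's test 0 passed an adjusted p of 0.05, against 0.0237% of the 12660 genes tested, and 0 reached an unadjusted p of 0.05, against 7.58% (4.9% higher and 2.68% lower). DESeq2 likewise called 0 and put 1 member, Dbp, at an unadjusted p under 0.05 (p = 0.0447, adjusted p = 0.557), and edgeR's exact test and limma on log2 TPM gave 0 by either measure. Leaving out 1 library kept the adjusted count at 0 but moved the unadjusted count in edgeR's quasi-likelihood test to 2 without MI4KO replicate 2 (Per2 and Per3) and to 2 without MI4KO replicate 3 (Per1 and Dbp). It was 1 without MI4OE replicate 1 (Per2), 1 without MI4OE replicate 2 (Arntl) and 0 without either of the other 2 libraries. The criterion the study used, a fold change of 1.5 with an unadjusted p under 0.05, was met by 0 members and by 6.64% of all genes (4.36% higher and 2.28% lower). Leaving out 1 library moved this count to 2 without MI4KO replicate 2 (Per2 and Per3), to 2 without MI4KO replicate 3 (Per1 and Dbp) and to 1 without MI4OE replicate 2 (Arntl), and left it at 0 otherwise. The groups did not overlap for 3 of the 9 (Arntl, Per3 and Dbp), against 12.8% of all genes tested (7.36% higher and 5.47% lower). Without MI4KO replicate 1 the same 3 members did not overlap, against 19.2% of genes. Without MI4OE replicate 1 Per2 joined them, against 20.4%, and without both libraries the count was also 4, against 29.9%.

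**Figure D2:**
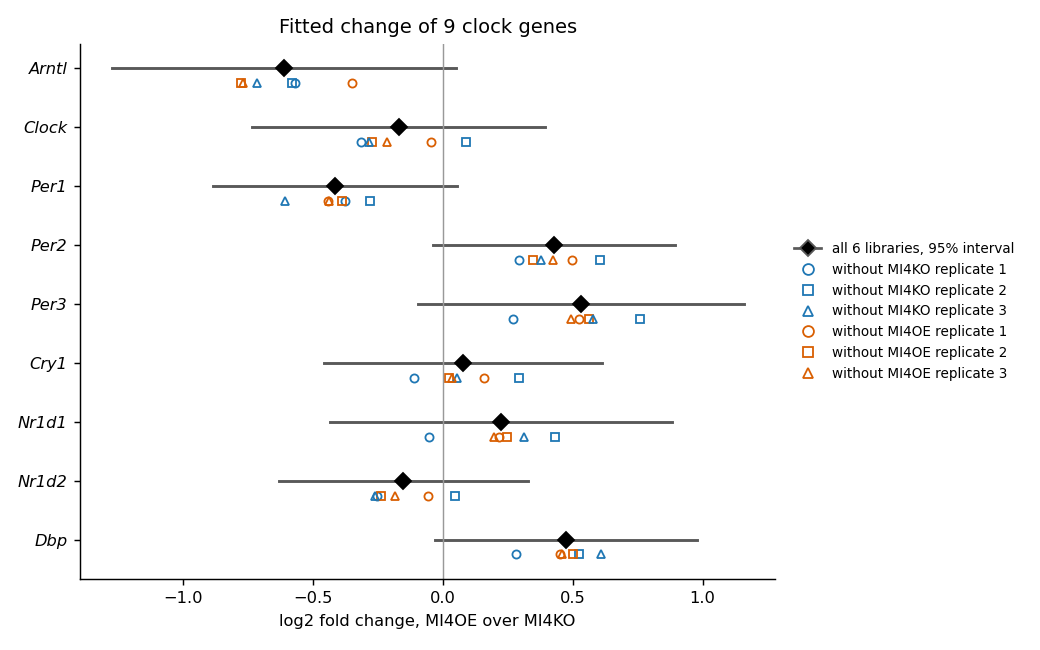
Log2 fold change, MI4OE over MI4KO, of the 9 clock genes tested, with 95% intervals as bars (black diamonds, all 6 libraries) and the estimate without each library in turn as open symbols. Every interval includes 0, and the estimates of Clock, Cry1, Nr1d1 and Nr1d2 change sign when 1 MI4KO library is left out.

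The ratio of an activator to a repressor or output gene within each library asks whether the libraries differ in the phase of the clock. It needs no scaling between libraries. Each ratio is of counts, so only its change between libraries can be read, not the relative level of the genes. The log2 ratio of Arntl to Nr1d1 was -2.59, -3.73 and -3.84 in MI4KO and -5.06, -3.98 and -4.07 in MI4OE. Every MI4KO library was above every MI4OE library, but the inner libraries of the groups lay close together and replicate 1 of each group lay at the outer end. The mean difference was -0.99, a ratio 1.98 times higher in MI4KO, and it was -0.59 without MI4KO replicate 1.

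The log2 ratio of Arntl to Dbp was -3.20, -3.79 and -4.22 in MI4KO and -5.65, -4.52 and -4.61 in MI4OE. The groups were again apart, which had to follow because Arntl and Dbp were each apart, in opposite directions. The mean difference of -1.19 was 2.28-fold (-0.83 without MI4OE replicate 1). The log2 ratio of Npas2 to Per3 was -5.14, -5.62 and -5.35 in MI4KO and -7.34, -7.02 and -9.13 in MI4OE, but it rests on 14 and 3 counts of Npas2. Its difference of -2.46 became -1.12 when 5 rather than 0.5 was added to each count. Npas2 and Per3 were also each apart in opposite directions, so their ratio had to be apart. Each ratio gave p = 0.1 in a two-sided exact permutation test (adjusted p = 0.1 over the 3), which is the smallest p that 3 against 3 libraries can give, so this test could not reach 0.05. For Arntl to Dbp and Npas2 to Per3 this p was fixed by the single-gene values and adds nothing to them. The 3 ratios share genes and libraries and are not independent of one another. Other pairs were not formed. Per1 and Nr1d2, which were fitted lower in MI4OE as Arntl was, were not used, so these ratios do not stand for all activator to repressor pairs.

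**Figure D3:**
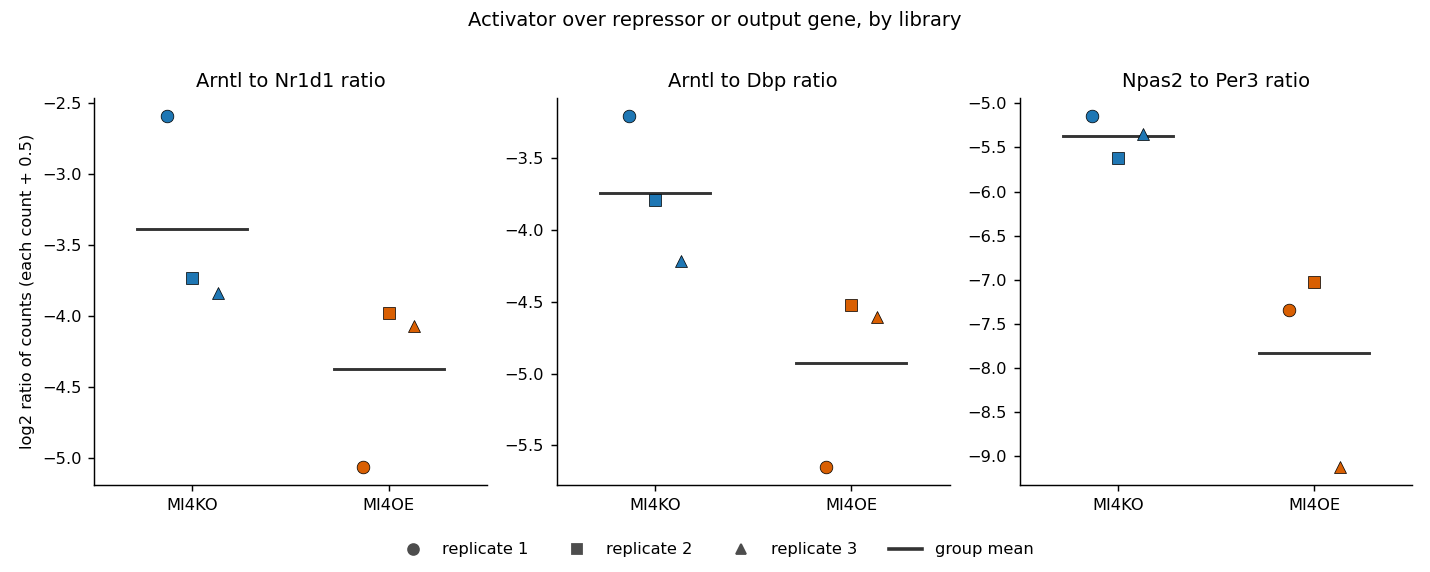
Log2 ratio of counts (each count plus 0.5) of Arntl to Nr1d1, Arntl to Dbp and Npas2 to Per3 in each library, with lines at the group means. All MI4KO points lie above all MI4OE points in each panel, and replicate 1 of each group is the outermost point for both Arntl ratios. Arntl, Dbp, Npas2 and Per3 were each apart on their own, and other pairs of members were not formed.

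An index of the 3 activators minus the 7 other members, each as mean log2 CPM, was -3.14, -3.45 and -3.42 in MI4KO and -4.40, -3.91 and -4.26 in MI4OE. The group means were -3.34 ± 0.17 and -4.19 ± 0.25 (SD, n = 3), a difference of -0.85 that was -0.62 when the scarce Npas2 was left out and -0.43 on log2(TPM + 1). Without Npas2 the index was -1.19, -1.54 and -1.67 in MI4KO and -2.50, -1.84 and -1.91 in MI4OE, so the groups stayed apart. The index was computed from genes chosen with results known and was given no test. Since the times of collection are not given, a difference in genotype and a difference in the time at which muscles were taken cannot be told apart here.

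Most members varied more among the MI4KO libraries than among the MI4OE libraries. Of the 9 members, 8 had a larger coefficient of variation (SD over mean CPM) in MI4KO, where the median was 24.4%, than in MI4OE, where it was 10.4%. Over all genes tested the medians were 19.1% and 20.5%, and 46.4% of genes varied more in MI4KO. In MI4OE the 3 libraries were very alike for Nr1d1 (2.85%), Dbp (3.55%), Per1 (3.60%) and Per3 (4.25%). Arntl was the exception, at 11.2% in MI4KO and 35.4% in MI4OE, where replicate 1 stood low. With MI4KO replicate 1 left out, 8 of the 9 still varied more in MI4KO, at a median of 19.2%, against 37.8% of all genes. In that comparison MI4KO had fewer libraries than MI4OE, so the values of the groups are not alike. These are descriptions over at most 3 libraries a group, and the difference in spread was not tested.

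**Figure D4:**
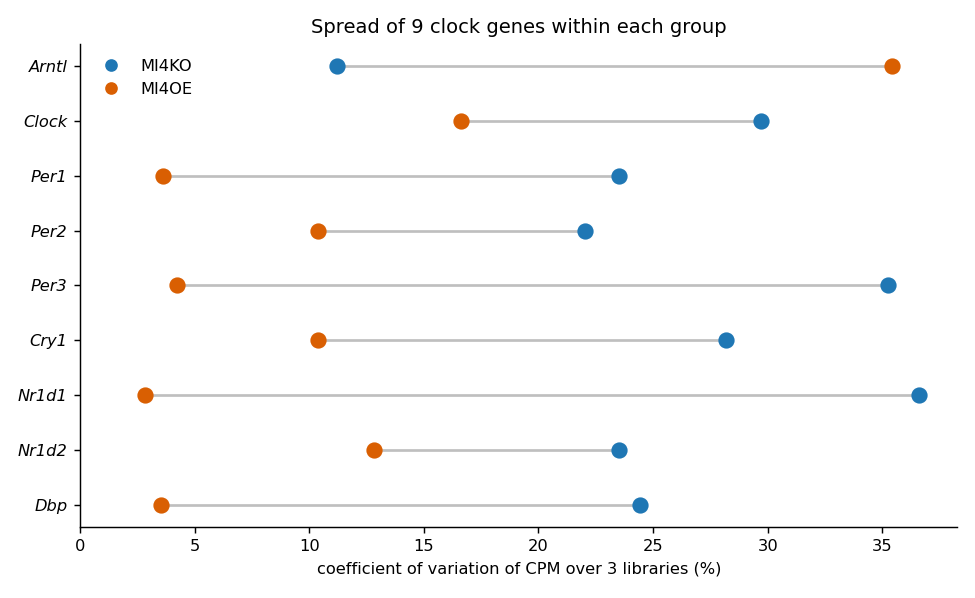
Coefficient of variation of CPM over the 3 libraries of each group for the 9 clock genes tested. The MI4OE point is left of the MI4KO point for 8 genes and right of it for Arntl.

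MI4KO replicate 1 held an extreme value for most members. It was the lowest of the 6 libraries for 5 of the 9 members (Per2, Per3, Cry1, Nr1d1 and Dbp) and the highest for Arntl, whereas 23.0% of all genes tested were lowest and 18.2% highest there. MI4KO replicate 2 was the highest library for 5 members (Clock, Per1, Cry1, Nr1d1 and Nr1d2), as it was for 21.5% of all genes. MI4OE replicate 1 was the lowest for Arntl, Clock and Nr1d2 and the highest for Dbp, and 30.5% of all genes were lowest and 31.5% highest there. The opposite ends of the Arntl to Nr1d1 and Arntl to Dbp ratios were thus held by replicate 1 of MI4KO and replicate 1 of MI4OE.

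Of 18 other clock genes listed, 16 were tested, 5 were fitted higher and 11 lower in MI4OE. Their median log2 fold change was -0.053 (-4.3e-05 over all genes), and in edgeR's quasi-likelihood test 0 passed the adjusted threshold. None had an unadjusted p under 0.05 or groups apart, against 7.58% and 12.8% of all genes, shares at which few of any 16 genes would be counted. The remaining listed genes, Rorb and Fbxl21, had at most 5 counts in any library and were not tested. Among them, and chosen after their values were seen, Bhlhe40, a repressor that binds E-boxes, was at 30.2 CPM in MI4KO replicate 1 and at 67.6 to 143 CPM in the other 5 libraries. Of the 15 clock output genes, all tested, 5 were fitted higher and 10 lower (median -0.095) and 0 passed the adjusted threshold. An unadjusted p under 0.05 and groups apart were found for 1 higher gene (Cys1) and 1 lower gene (Nampt). Over all genes the shares were 7.58% and 12.8%, at which a few of any 15 genes would be counted. Nampt encodes the enzyme that salvages NAD and is an E-box target. For Nampt the MI4KO replicates measured 93.5, 115 and 98.2 CPM and the MI4OE replicates 67.1, 73.2 and 77.3 CPM. Its log2 fold change was -0.50 ± 0.16 (unadjusted p = 0.0153, adjusted p = 0.546 by edgeR's quasi-likelihood test). Cys1, which encodes a protein of the primary cilium, was fitted in the other direction (1.03 ± 0.44, adjusted p = 0.654), from at most 1.78 CPM in MI4KO to at least 1.85 CPM in MI4OE, and its log2 fold change was 0.64 without MI4OE replicate 1. Nfil3, the repressor that competes with DBP for D-boxes, was at 90.7 CPM in MI4KO replicate 1 and at 15.1 to 29.6 CPM elsewhere (also chosen after its values were seen).

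Genes of the glucocorticoid and fasting response, which can shift the muscle clock, were fitted lower in MI4OE for 16 of 16 listed genes, at a median of -1.06 on the log2 scale. None passed the adjusted threshold in edgeR's quasi-likelihood test, 7 had an unadjusted p under 0.05 (2.68% of all genes in that direction), and 5 had groups apart, against 5.47% of all genes in that direction. They were highest in MI4KO replicate 1 for 13 of the 16 genes, where they summed to 3597 CPM against at most 1781 CPM in any other library. For Fkbp5, which encodes a co-chaperone of the glucocorticoid receptor, the MI4KO replicates measured 148, 29.2 and 28.3 CPM and the MI4OE replicates 17.8, 37.3 and 31.3 CPM. Foxo1, a fasting transcription factor, was at 110 CPM in MI4KO replicate 1 and at 19.7 to 26.1 CPM in the other 5 libraries. Without MI4KO replicate 1 the log2 fold change of Fkbp5 went from -1.25 to -0.0030 and that of Foxo1 from -1.04 to 0.28.

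Some of these genes were apart in all libraries. For Tsc22d3, which encodes the glucocorticoid-induced leucine zipper, the MI4KO replicates measured 281, 248 and 193 CPM and the MI4OE replicates 124, 162 and 170 CPM (log2 fold change -0.66 ± 0.22, adjusted p = 0.546). Sgk1, a kinase induced by the same hormone, had a fitted log2 difference of -1.09 ± 0.29 (adjusted p = 0.496, and 0.0449 to 0.912 over the 13 alternative fits). Ddit4, Angptl4 and Mt2 were likewise lower in each MI4OE library, at log2 fold changes of -3.06, -1.95 and -3.70, and Cebpd was lower on average (-1.44) with overlapping groups. Without MI4KO replicate 1 the log2 fold change of Mt2 was -0.91, that of Ddit4 -2.37 and that of Cebpd -0.99. Angptl4 and Sgk1 passed the adjusted threshold with DESeq2, and Angptl4 and Ddit4 with edgeR's exact test. Of the 12 immediate early genes, 4 were fitted higher and 8 lower, and 0 passed the adjusted threshold in edgeR's quasi-likelihood test. Only 1 of the 12, Nr4a1, an orphan receptor induced by activity, had groups apart (304, 224 and 184 against 166, 164 and 117 CPM). It was also the only 1 with an unadjusted p under 0.05 (adjusted p = 0.577 by the same test). Over all genes 12.8% had groups apart and 7.58% had such a p, so this count is near that of any 12 genes. Fos, the classical immediate early gene, was at 1.10 to 12.4 CPM with overlapping groups. The part of these genes in the clock values, those of MI4KO replicate 1 above all, was not tested.

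**Figure D5:**
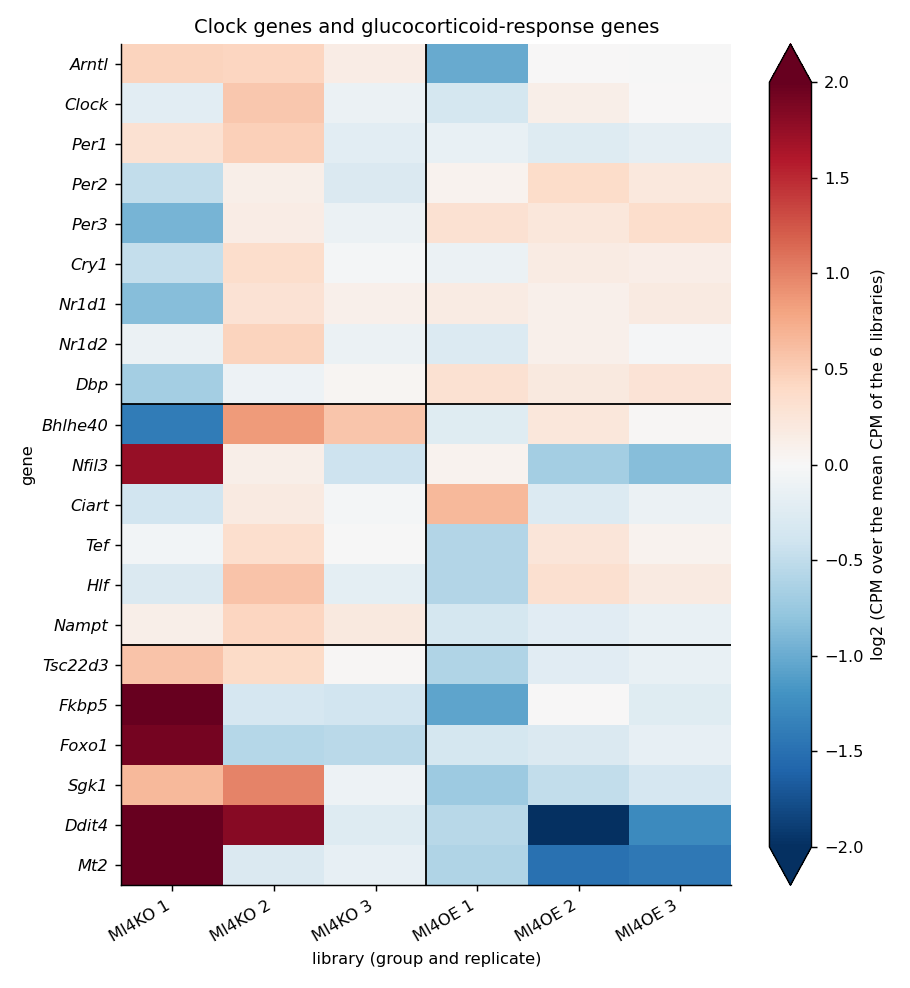
Log2 CPM (prior count 2) minus its mean over the 6 libraries, so that the mean meant on the scale is a mean of log2 values. The colour scale runs from -2 to 2, and values beyond it take the end colours. Shown are 9 clock genes, 6 further clock genes and 6 glucocorticoid and fasting response genes, some chosen after their values were seen. MI4KO replicate 1 is low for Per3, Nr1d1, Dbp and Bhlhe40 and high for Nfil3, Fkbp5, Foxo1, Ddit4 and Mt2.

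The genes whose pattern over the 6 libraries was most like that of Arntl were not clock genes. Among 8202 genes with a mean of at least 5 CPM, Pearson's r of log2 CPM with Arntl was highest for Gypc (0.997), Ccdc43 (0.996), Atg4a, Rnf170 and Rnf130 (0.995 each). It was lowest for Oplah and Sh3gl1 (-0.996 each), Bcam (-0.994), Rapgef3 (-0.993) and Cnn2 (-0.989). Of the other members, Nr1d2 (0.61), Clock (0.58) and Per1 (0.55) had the highest r, Cry1 was near 0 (0.074), and Per2 (-0.33), Nr1d1 (-0.36), Per3 (-0.52) and Dbp (-0.66) were negative. The strongest member, Dbp, ranked 1734 from the lowest, and all genes share the same 6 libraries, of which MI4OE replicate 1 is the one where Arntl stood apart.

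Transcript estimates add little for most members, since 6 of the 10 have 1 transcript in the annotation of the files. The share of Arntl counted to its longer transcript was between 84.3% and 100% in all libraries. For Clock and Per3 the estimated share of a transcript ranged from 0% to 75.8% and from 0% to 72.3% between libraries of the same table, with no order by group. Short single reads on transcripts of nearly equal length limit such estimates, and the gene counts used above do not depend on the split.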

How the data were processed

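RNA-seq was made by the study from gastrocnemius of 3 MI4KO and 3 MI4OE mice with a stranded mRNA kit and short single reads. The authors demultiplexed with bcl2fastq 2.17, mapped reads to a UCSC transcript set with Bowtie2 2.1.0 and estimated expression with RSEM 1.2.15. The genome build is not given in the sources used here. The deposited gene and transcript tables hold RSEM expected counts, TPM and, for transcripts, each one's percent of its gene. The authors' comparison tables of fold changes, p-values and scaled values were not used.

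Expected counts were rounded and tested with edgeR 4.0.16 (TMM scaling, quasi-likelihood test, R 4.3.3), MI4OE against MI4KO, for genes that passed a filter at a minimum count of 10 (total 15), with Benjamini-Hochberg adjustment over all 12660 genes. CPM values use TMM-scaled library sizes of 20326880 to 29774001 counts, and intervals and floors cover counting error only where they come from counts. Ratios within a library were compared by exact permutation (scipy 1.17.1). The scripts were tested on simulated counts with known changes. There edgeR's quasi-likelihood test called 14 of 100 genes changed 2-fold and 81 of 100 changed 4-fold, so 0 calls do not show that nothing changed. Unchanged genes were called 34 times by edgeR's exact test, 30 times by DESeq2 and 9 times by the quasi-likelihood test. DESeq2 1.42.0, edgeR's exact test, limma 3.58.1 on log2(TPM + 1) and log2(TPM + 0.1), other scalings, no filter and leaving out each library were tried as alternatives. The members and gene lists were chosen with earlier results of these data known. Named genes are the members, Irf4, Thra, Tsc22d3, Fkbp5, Foxo1 and Fos, up to 6 genes of each clock or response list with an unadjusted p under 0.05 or groups apart, and the 5 most and 5 least like Arntl by Pearson's r. Bhlhe40, Nfil3, the further genes of the colour map, Sphk2, the marker genes named by symbol and the untested Rorb and Fbxl21 were named outside this rule, after their values were seen. Of the macrophage markers, Adgre1 was listed as Emr1. Each sample title carries a number of its own that the labels do not explain. The study counts 3 samples a group, and p-values measure the spread between these libraries only. No label names a batch. Promoter windows came from RefSeq (GRCm38.p6) and exon overlaps from the GENCODE annotation of the same genome.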

Additional observations from a re-analysis of the deposited data

Results flagged for a closer look

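The transcript estimates of Per1, which enter no comparison above, set MI4OE replicate 1 apart. There RSEM put 75.7% of Per1 on the shorter of its 2 listed transcripts, against 0% to 0.67% in the other 5 libraries. The gene count of Per1 in that library (61.2 CPM) lay within the range of the other libraries, and no test was made on this value.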

How the results depend on the processing

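No clock gene passed the adjusted threshold under any of the 13 alternatives. The count of all genes that passed it was 3 and became 111 with DESeq2, 112 with edgeR's exact test and 5 with limma on log2(TPM + 0.1), and 1 (without MI4KO replicate 1) to 4 when each library was left out. At the study's criterion 841 genes passed, 552 higher and 289 lower, and 455 with limma on log2(TPM + 1), and 590 to 1314 (without MI4OE replicate 2) when each library was left out. The split was 582 higher and 230 lower without TMM, where the median of all genes moved to 0.090, and 298 and 330 without MI4KO replicate 1. The activator index difference of -0.85 was -1.13 with a prior count of 0.5, -0.43 on log2(TPM + 1) and -0.62 without Npas2, chosen after seeing the data, and -0.99 to -0.75 with each library left out. With each library left out, the log2 fold changes ran from -0.31 to 0.090 for Clock, -0.11 to 0.30 for Cry1, -0.053 to 0.43 for Nr1d1, -0.26 to 0.047 for Nr1d2 and -1.44 to 0.28 for Foxo1, each with 1 change of sign. On log2(TPM + 1) the fold change was 0.67 for Cys1, -2.23 for Mt2, -0.75 for Fkbp5 and -0.45 for Foxo1. With each library left out, those of Arntl (-0.77 to -0.35), Per1 (-0.61 to -0.28), Per2 (0.29 to 0.61), Per3 (0.27 to 0.76) and Dbp (0.28 to 0.61) kept their sign. The Arntl to Nr1d1 difference ran from -1.21 to -0.59, Arntl to Dbp from -1.43 to -0.83 and Npas2 to Per3 from -2.87 to -1.81. No paired analysis was possible because no label ties an MI4KO mouse to an MI4OE mouse and replicates were numbered by order. Leaving out libraries for the counts of members with groups apart was also chosen after seeing the data.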
